A study of Mus musculus with 2 samples.

Results

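The transcription factors Pou5f1, Sox2, Nanog, Esrrb, Sall4, Zfp42 and Tfcp2l1 were followed through m6A site lists from ONT direct RNA sequencing (DRS), in which native RNA molecules pass through a nanopore and base modifications are read from the current or from base-calling errors. All unique genome positions of the 17 lists that fell in exons of these 7 genes on the same strand were taken, which gave 174 of the 160430 listed positions. The RNA came from mouse 129 embryonic stem cells (mESCs), either wild type (WT) or with Mettl3 knocked out on both alleles by replacing exons 5 to 7 with drug resistance genes (Mettl3 KO), and the labels name no further treatment. One DRS library per condition was made from poly(A) RNA, so no test between the conditions was possible. A pair of lists, from WT and from KO, came from each of the single-mode tools (those able to work on a lone sample), namely Tombo, MINES, Nanom6A, m6Anet, ELIGOS and Epinano, and also from xPore, which compares samples. A further 3 tools, Nanocompore, DiffErr and DRUMMER, compare both libraries and gave 1 list apiece, called comparison lists here. Tools are not independent of each other: per the paper, MINES takes values computed by Tombo, and Nanom6A starts from Tombo's assignment of signal to bases. A number of tools is thus not a number of independent results. The lists hold positions without scores, methylation rates or coverage, so the depth per gene or site is unknown. A gene or site that is not listed may have had too few reads. Intervals are 95% Wilson intervals for shares, or derive from the exact binomial interval for ratios, and cover counting error only. Those for ratios treat the WT and KO counts as independent, although many positions were in both, so they leave out the pairing.

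N6-methyladenosine is placed on nuclear pre-mRNA mostly by a complex of Mettl3, the catalytic subunit, with Mettl14, within the 5-mer motif RRACH (R, purine; H, any base but G), and is typically found in long internal exons and around the stop codon. Readers that bind it can shorten the life of a transcript. Pluripotency transcripts are among its known carriers in mESCs, and loss of Mettl3 is known to hinder the exit of naive cells from self-renewal. Pou5f1 (also called Oct4), a POU-domain factor, and Sox2, its HMG-box partner, bind DNA together, and the homeobox factor Nanog joins them in the core of the network. Esrrb, an orphan nuclear receptor, and Tfcp2l1, a factor of the CP2 family, support naive self-renewal. Sall4 is a zinc-finger factor of the same network, and Zfp42 (Rex1) is a zinc-finger protein widely used as a marker of the naive state.

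In Mettl3 itself, 7 positions in exons 1 to 4 and 2 in the replaced exons 5 to 7 were listed in WT or the comparison and 0 in KO, while exons 8 to 11 had 4 and 5. The ES cell markers were listed for 7 of 8 genes, with no position for Lin28a, and 17 of their 146 listed positions (11.6%) were in a comparison list, beside 1.97% over all genes, and 14 (9.59%) had at least 3 tools and no KO listing, beside 2.66%. Of other cell types, 1 of 4 primitive endoderm, 1 of 3 mesoderm, 0 of 3 neural and 2 of 4 fibroblast markers had any listed position. These were not even between the libraries, with 12 positions in WT and 0 in KO for Sox17, 3 and 0 for Eomes, 0 and 3 for Col1a1 and 3 and 1 for Thy1, and their part in the counts of the 7 genes was not tested. A listed position shows that a transcript was sequenced and passed a tool's cut-off, and gives no expression level.

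The 14 positions that at least 1 comparison list held are those that Nanocompore, DiffErr or DRUMMER called from WT against KO, and their sequences are printed first. Each stretch is the GRCm38 reference sequence of the transcript strand, with 10 bases on either side of the listed A and the 5-mer in capitals, and its name gives the gene, the chromosome and strand, and the position of the A.
Pou5f1 (chr17, plus strand, 35506315): catactgtGGACCtcaggttg
Pou5f1 (chr17, plus strand, 35506327): ctcaggttGGACTgggcctag
Sox2 (chr3, plus strand, 34651236): gacctccgGGACAtgatcagc
Sox2 (chr3, plus strand, 34651383): tgagggctGGACTgcgaactg
Sox2 (chr3, plus strand, 34651595): agatcttgGGACTtctttttg
Sox2 (chr3, plus strand, 34651610): tttttgggGGACTatttttgt
Nanog (chr6, plus strand, 122713398): ttcggggaGGACTttctgcag
Nanog (chr6, plus strand, 122713557): gaaatatgAGACTtacgcaac
Esrrb (chr12, plus strand, 86521226): cttcccatGGACAgagcttga
Zfp42 (chr8, minus strand, 43296376): ccctcgacAGACTgaccctaa
Zfp42 (chr8, minus strand, 43296273): tagccccgAGACTgaggaaga
Zfp42 (chr8, minus strand, 43295824): agagctcgAAACTaaagcgac
Zfp42 (chr8, minus strand, 43295587): gaaggtggAGACAgattgtcc
Zfp42 (chr8, minus strand, 43295350): ggggatggGGACTtttgcata

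Of the 174 positions, 168 were listed in WT or the comparison, 140 in KO and 134 in both, leaving 34 without a KO listing and 6 in KO lists only. The 134 were 95.7% (91.0–98.0%) of the KO positions, beside 70.8% of 107541 over all genes. All 174 were in RRACH. The share of RRACH positions that was listed differed widely between the genes. On the main transcript, that is the principal coding transcript of the annotation, a listed position was found at 25 of 25 RRACH positions of Pou5f1, 28 of 33 of Sox2, 38 of 47 of Nanog, 53 of 68 of Esrrb and 17 of 20 of Zfp42. In Tfcp2l1 it was found at 11 of 145 and in Sall4 at 1 of 72. Counted over all annotated exons, the listed positions per 100 RRACH positions were higher in Zfp42 than in 99.6% of the genes with at least 20 RRACH positions and a listed position, and higher in Sox2, Nanog, Pou5f1 and Esrrb than in 99.5%, 99.2%, 99.0% and 93.7% of them. The same rank was 15.1% for Tfcp2l1 and 1.46% for Sall4.

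**Figure D1:**
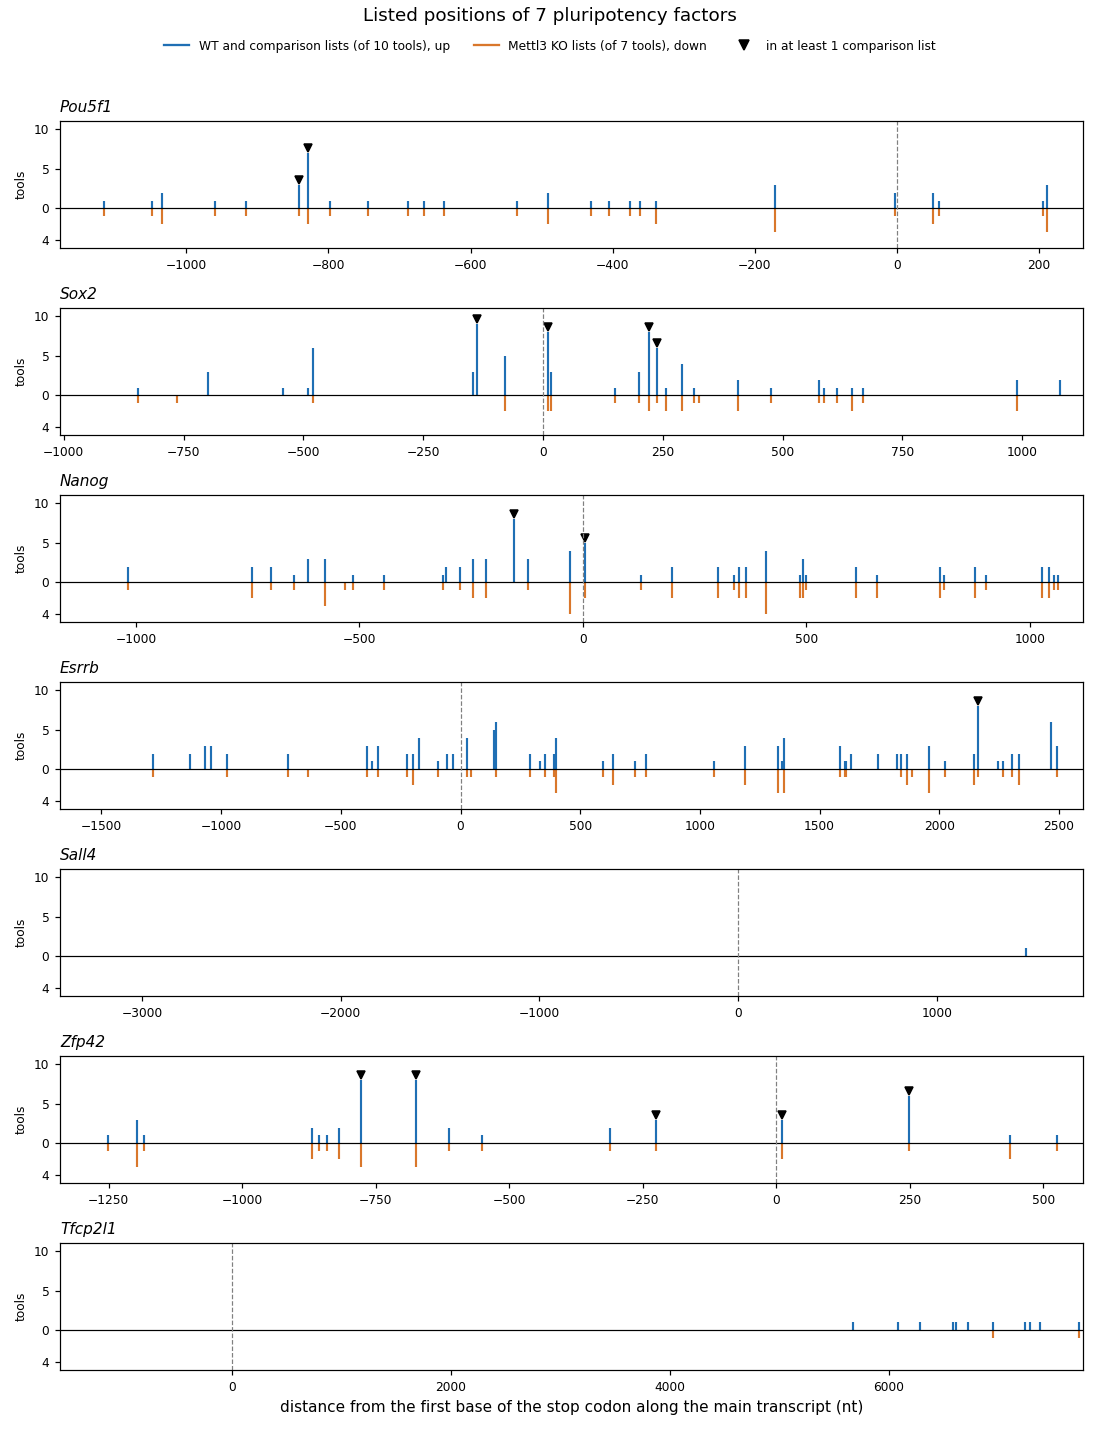
Listed positions of the 7 genes by distance along the main transcript from the first base of the stop codon (x axis, nt; dashed line at 0). Lines going up give the number of the 10 tools with the position in a WT or comparison list, lines going down the number of the 7 tools with it in a KO list, and triangles mark the 14 positions in a comparison list. In Pou5f1 and Zfp42 every WT position has a KO line below it, while the Tfcp2l1 positions are all in the 3′ UTR and Sall4 has 1. One Zfp42 position off the main transcript is not drawn.

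Pou5f1 (ENSMUSG00000024406, chr17, plus strand, from 35506018 to 35510772) is read here on the 1362-nt transcript ENSMUST00000025271 with 5 exons. Every RRACH position of that transcript was listed in WT and every one in KO, 25 and 25, so presence in a list did not tell the libraries apart. Nanom6A alone listed 24 positions in WT and the same 24 in KO. Tombo listed 6 and 6, of which 5 were shared, m6Anet 4 and 2, xPore 2 and 1, and Epinano 1 and 1, while MINES and ELIGOS listed none. The exception to the even picture was the GGACT at 35506327 in the coding sequence of exon 1, 829 nt before the stop codon. It was listed by 7 of 10 tools, among them xPore and all 3 with comparison lists, and in KO by Tombo and Nanom6A. A neighbouring GGACC at 35506315 was listed by Nanom6A and m6Anet in WT, by Nanocompore and, in KO, by Nanom6A. The positions with the most KO tools, 3 of 7, were GGACA positions in the last exon at 35510378, listed by Tombo, Nanom6A and xPore in both libraries, and at 35510761 in the 3′ UTR, listed by Tombo, Nanom6A and m6Anet in both.

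Sox2 (ENSMUSG00000074637, chr3, plus strand, from 34650405 to 34652461) has a single exon and 1 annotated transcript, ENSMUST00000099151, of 2057 nt. In WT or comparison lists it had 26 positions, and in KO lists 22. Each tool with a Sox2 position listed fewer in KO than in WT. Epinano listed 9 positions in WT and 0 in KO, ELIGOS 6 and 0, MINES 2 and 0, m6Anet 13 and 3, and xPore 9 and 2. Tombo listed 10 and 8, and Nanom6A 21 and 18.

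The position of the 7 genes with the widest support was in Sox2. This GGACA at 34651236, in the coding sequence 137 nt before the stop codon, was listed by 9 of 10 tools, all but MINES, and by no KO list. Its neighbour 9 nt upstream, the GGACC at 34651227 (caggccggGGACCtccgggac), was listed by Tombo, Nanom6A and m6Anet in WT and also by no KO list. A GGACT at 34651383, 10 nt after the first base of the stop codon, was listed by 8 of 10 tools, including DiffErr and DRUMMER, and in KO by Tombo and m6Anet. In the 3′ UTR, 2 GGACT positions 15 nt apart, at 34651595 and 34651610, were listed by 8 and 6 of 10 tools and by 2 and 1 KO lists. The AGACT at 34651294 was listed by 5 tools in WT and by Tombo and Nanom6A in KO. In the coding sequence, Nanom6A went from 5 positions in WT to 1 in KO, whereas in the 3′ UTR it listed 16 and 17.

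Nanog (ENSMUSG00000012396, chr6, plus strand, from 122707489 to 122714633; transcript ENSMUST00000012540, 2211 nt, 4 exons) had 37 positions in WT or comparison lists and 35 in KO lists. Nanom6A listed 32 positions in WT and 30 in KO, Tombo 17 and 14, m6Anet 11 and 5, Epinano 9 and 4, xPore 5 and 4, and ELIGOS 3 and 1. MINES listed 0 and 1. One position stood out from this large overlap by its number of tools. The GGACT at 122713398 in the coding sequence of exon 4, 155 nt before the stop codon, was listed by 8 of 10 tools and by no KO list. DiffErr and DRUMMER, but not Nanocompore, held it. Nanocompore instead listed the AGACT at 122713557, 4 nt after the first base of the stop codon, which 5 tools listed in all and which Nanom6A and xPore listed in KO. The GGACT at 122711687, in the coding sequence of exon 2, was listed by Tombo, Nanom6A and m6Anet in WT and by no KO list.

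Nanog also carried the positions with the most KO tools of all 7 genes. The GAACT at 122713524 (ttattcctGAACTactctgtg) was listed by Nanom6A, m6Anet, Epinano and xPore in WT and by the same 4 in KO. The GGACC at 122713962 in the 3′ UTR (gaatgctgGGACCaaaggtgg) was listed by Tombo, Nanom6A, ELIGOS and Epinano in both libraries. No comparison list held either of them. The positions with the most KO tools were thus one with the GGAC core and one without it.

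A further feature of Nanog, picked out after its values were seen, is a run of 4 coding GGACC positions exactly 30 nt apart, printed here because they nearly repeat each other. The bases TGG before the A are in frame in each, and TGG is the codon for tryptophan, after which the tryptophan-rich stretch of the Nanog protein is named.
Nanog (chr6, plus strand, 122713247): ccagacttGGACCaacccaac
Nanog (chr6, plus strand, 122713277): ccagacctGGACCaacccaac
Nanog (chr6, plus strand, 122713307): ccagacctGGACCaacccaac
Nanog (chr6, plus strand, 122713337): ccaggcctGGACCgctcagtc
The first of these stretches differs from the second at 1 base, the second and the third are identical over all 21 bases, and the fourth differs from the third at 7. Their listings were not alike. The first was listed by Nanom6A and m6Anet in WT and by no KO list, and the second by Tombo and Nanom6A in WT and by Nanom6A in KO. The third was listed by Tombo, Nanom6A and ELIGOS in WT and by Tombo and Nanom6A in KO, and the fourth by Nanom6A, m6Anet and xPore in WT and by Nanom6A and xPore in KO. The second and the third thus had the same 21 bases and differed in ELIGOS in WT and in Tombo in KO.

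Esrrb (ENSMUSG00000021255, chr12, plus strand, from 86361117 to 86521628) is read on the 4196-nt transcript ENSMUST00000110204 with 7 exons and a 3′ UTR of 2560 nt. It had the most listed positions of the 7 genes, 53, more than 99.3% of all genes with a listed position. Of these, 50 were in WT or comparison lists and 38 in KO lists. Nanom6A listed 33 in WT and 15 in KO, with 14 shared, whereas its lists were of equal or nearly equal length in Pou5f1, Nanog and Zfp42. The coding sequence gave Nanom6A 8 positions in WT and 0 in KO, against 25 and 15 in the 3′ UTR. Such a coding difference was not general, as Nanom6A listed 20 and 20 coding positions in Pou5f1, 9 and 9 in Zfp42 and 11 and 8 in Nanog. Tombo listed 30 and 25, m6Anet 22 and 2, Epinano 15 and 4, ELIGOS 12 and 1, xPore 6 and 3, and MINES 3 and 2 with none shared.

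The position with the most tools in Esrrb was far from the stop codon. This GGACA at 86521226, in the 3′ UTR and 2163 nt after the stop codon begins, was listed by 8 of 10 tools, including Nanocompore, and in KO by Tombo alone. Farther on, 302 nt downstream, the GGACA at 86521528 (ccctgtatGGACAtgtcctcc) was listed by 6 tools and by no KO list. Closer to the stop codon, an AGACT at 86519203 and a GGACA at 86519213, 140 and 150 nt after its first base, were listed by 5 and 6 tools, the first by no KO list and the second by Tombo in KO. In the coding sequence, the GGACT at 86518890 was listed by 4 tools, and those at 86470391 and 86470415 by 3 each, with no KO listing. The positions with the most KO tools, 3 of 7, included the AGACA at 86519462 and the AGACT at 86520388. Only 1 comparison list held an Esrrb position, and it held 1.

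Sall4 (ENSMUSG00000027547, chr2, minus strand, from 168748332 to 168767943; transcript ENSMUST00000029061, 5073 nt) was almost unlisted. Its 1 position was the AAACT at 168748582 (aggatccaAAACTtgttttgt) in the 3′ UTR, 250 nt from the transcript's 3′ end, and Epinano alone listed it, in WT. No other WT list, KO list or comparison list analysed here held a Sall4 position, and the number of reads behind this is unknown.

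Zfp42 (ENSMUSG00000051176, chr8, minus strand, from 43295063 to 43306980; transcript ENSMUST00000211248, 1837 nt, 5 exons) was, like Pou5f1, listed at the same positions in both libraries, 18 in WT and 18 in KO. Nanom6A listed all 18 in each. Tombo listed 7 and 6, m6Anet 6 and 2, xPore 4 and 2, Epinano 3 and 0, and MINES 1 and 1, the same position. Even so, Zfp42 had more positions in comparison lists than any other of the 7 genes, 5, and all 5 were also in a KO list. Nanocompore listed 5, DiffErr 3 and DRUMMER 1. The AGACT at 43296376 and the AGACT at 43296273, both in the coding sequence of exon 5 and 103 nt apart, were each listed by 8 of 10 tools and by 3 KO lists. The GGACT at 43295350 in the 3′ UTR was listed by 6 tools and in KO by Nanom6A. The AAACT at 43295824 and the AGACA at 43295587, 11 nt after the first base of the stop codon, were each listed by 3 tools, Nanocompore among them, and by 1 and 2 KO lists. The position in the 5′ UTR with the most tools, the GGACT at 43304551 (agagaaatGGACTaagagctg), was listed by Tombo, Nanom6A and m6Anet in both libraries.

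Tfcp2l1 (ENSMUSG00000026380, chr1, plus strand, from 118627945 to 118685168) has the longest transcript of the 7, ENSMUST00000027629, with 9269 nt and a 3′ UTR of 7734 nt. All 11 listed positions were in that 3′ UTR, in exon 15, the farthest 2068 nt from the 3′ end and the nearest 4 nt. Each was listed by a single tool, 7 by Tombo, 3 by Epinano and 1 by MINES. Nanom6A, m6Anet, ELIGOS and xPore listed none in either library. In KO, 2 remained, the AGACA at 118684386 in the Tombo list and the AAACC at 118685164 in the Epinano list. In WT, the positions nearest the 5′ end were the AAACC at 118683100 and the GAACA at 118683511. The single GGACT of the set, at 118684677 (ccttccgtGGACTgagccagg), was in the WT list of Epinano only.

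**Figure D2:**
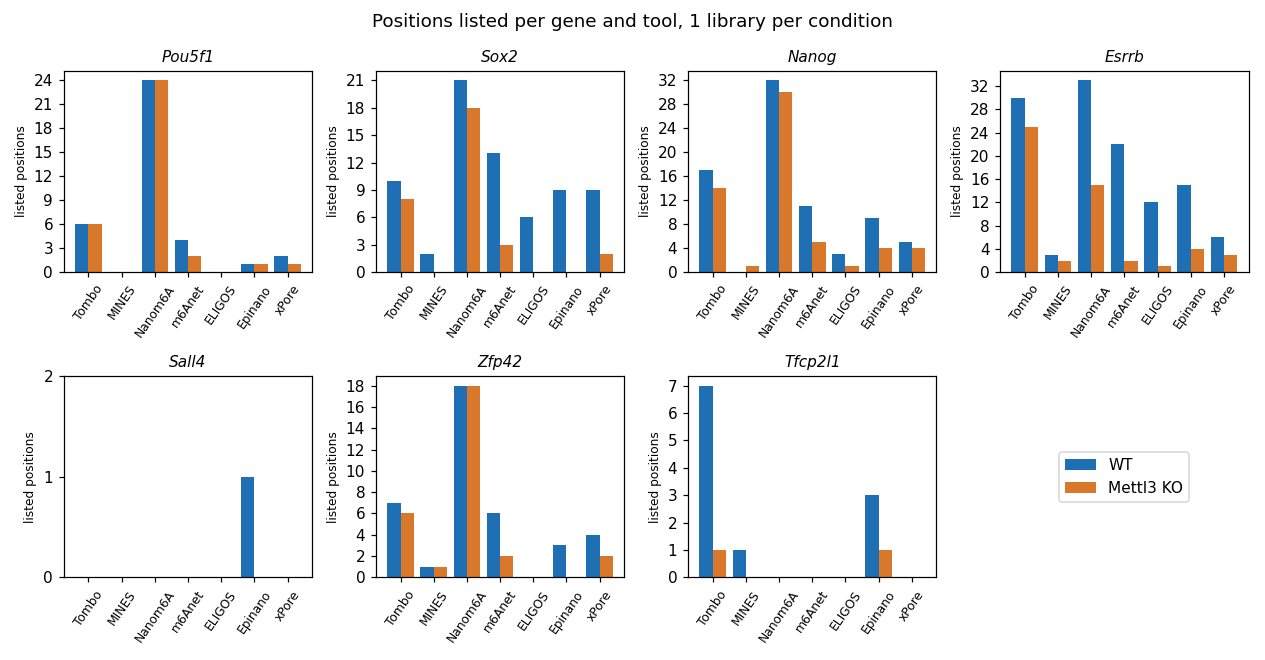
Number of listed positions (y axis, each panel with its own scale from 0) per tool in the WT and Mettl3 KO lists of each gene, from 1 library per condition. Nanom6A has bars of equal height in Pou5f1 (24 and 24) and Zfp42 (18 and 18) and of unequal height in Esrrb (33 and 15), while Epinano has 9 and 0 in Sox2.

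Over the 7 genes together, the single-mode tools listed 166 positions in WT and 138 in KO, a KO to WT ratio of 0.831 (0.658–1.05), beside 0.829 (0.822–0.836) over all genes. This ratio depended on the tools counted: without Nanom6A it was 0.628 (0.465–0.844), beside 0.792 (0.785–0.799) over all genes, and without Nanom6A and Tombo 0.329 (0.207–0.510), beside 0.530 (0.523–0.537). A WT position was relisted if the same tool listed it in KO. Of the 166, 129 were relisted by at least 1 tool, 77.7% (70.8–83.4%), beside 55.1% (54.8–55.3%) of 128519 over all genes, where 44.9% were thus not listed again. Nanom6A listed 128 of the 166 positions but 33531 of the 128519. The read number per gene is unknown, and its part in these shares was not tested. By gene, the relisted share was 100% (86.7–100%) in Pou5f1, 100% (82.4–100%) in Zfp42, 91.7% (78.2–97.1%) in Nanog, 76.0% (56.6–88.5%) in Sox2, 64.0% (50.1–75.9%) in Esrrb and 18.2% (5.14–47.7%) in Tfcp2l1, and 0 of 1 in Sall4. In this order the intervals of neighbours overlapped from Pou5f1 to Esrrb, and that of Tfcp2l1 lay below that of Esrrb.

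These shares depended on which tools were counted. Without Nanom6A, 56.2% (47.3–64.7%) of the WT positions were relisted, beside 50.1% (49.8–50.4%) over all genes, and without Nanom6A and Tombo 27.1% (18.8–37.3%), beside 29.0% (28.7–29.4%), so that the share of the 7 genes was then no longer the higher one. Both alternatives were chosen after seeing the data. In Pou5f1 the share went from 25 of 25 to 7 of 9 and 3 of 5, in Zfp42 from 18 of 18 to 7 of 10 and 3 of 7, in Nanog from 33 of 36 to 18 of 27 and 7 of 17, and in Sox2 from 19 of 25 to 9 of 18 and 3 of 15. In Esrrb it went from 32 of 50 to 25 of 45 and 6 of 36. Tfcp2l1 had 2 of 11, 2 of 11 and 1 of 4, and the last of these, 25.0% (4.56–69.9%), was above the 16.7% (7.87–31.9%) of Esrrb with overlapping intervals.

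**Figure D3:**
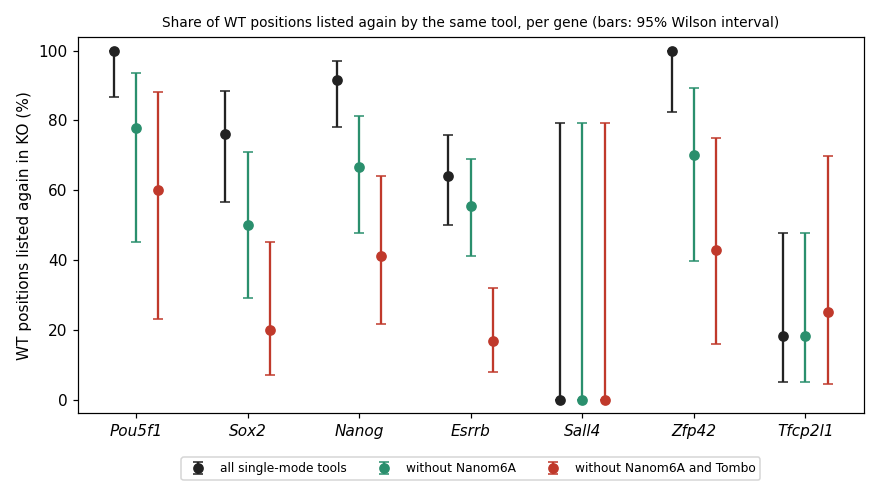
Share of the WT positions of each gene that the same tool listed again in Mettl3 KO (y axis, %), with all single-mode tools, without Nanom6A, and without Nanom6A and Tombo. Points are shares and bars their 95% Wilson intervals. The share is lower in Pou5f1, Sox2, Nanog, Esrrb and Zfp42 with each tool left out, at 100%, 77.8% and 60.0% in Pou5f1 and 64.0%, 55.6% and 16.7% in Esrrb, but not in Tfcp2l1, at 18.2%, 18.2% and 25.0%.

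By tool, Nanom6A relisted 100 of its 128 WT positions in the 7 genes, 78.1% (70.2–84.4%), beside 65.4% over all genes, where 34.6% were not listed again. Tombo relisted 54 of 77, 70.1% (59.2–79.2%), beside 59.7%, with 40.3% not listed again over all genes. The lists of m6Anet went from 56 positions to 14, of which 13 were relisted, 23.2% (14.1–35.8%), while 65.6% of its positions over all genes were not listed again. Epinano went from 41 to 10 with 9 relisted, 22.0% (12.0–36.7%), and ELIGOS from 21 to 2 with both relisted, 9.52% (2.65–28.9%), while over all genes 83.5% and 88.5% were not listed again. For xPore the numbers were 26, 12 and 10, 38.5% (22.4–57.5%), with 75.1% not listed again over all genes, and for MINES 7, 4 and 1, 14.3% (2.57–51.3%), with 59.8%. These shares count the same tool in both libraries. When a WT position was matched to the KO list of any tool, the shares were 84.4% for Nanom6A, 80.8% for xPore, 80.5% for Tombo, 76.2% for ELIGOS, 75.6% for Epinano, 71.4% for MINES and 69.6% for m6Anet, and the intervals of all 7 tools overlapped. That matching says little about the single tools, since 134 of the 168 WT or comparison positions were in some KO list and Nanom6A listed 105 of the 140 KO positions. The KO to WT ratio of m6Anet positions was 0.25 (0.129–0.455) in the 7 genes and 0.580 over all genes. For each of the other tools the interval of the 7 genes, which leaves out the pairing of positions, held the all-gene ratio. Nanom6A had 0.820 (0.628–1.07) beside 0.831, Tombo 0.779 (0.547–1.11) beside 0.904, xPore 0.462 (0.212–0.948) beside 0.446, Epinano 0.244 (0.109–0.495) beside 0.339, ELIGOS 0.0952 (0.0108–0.390) beside 0.259 and MINES 0.571 (0.123–2.25) beside 0.703.

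**Figure D4:**
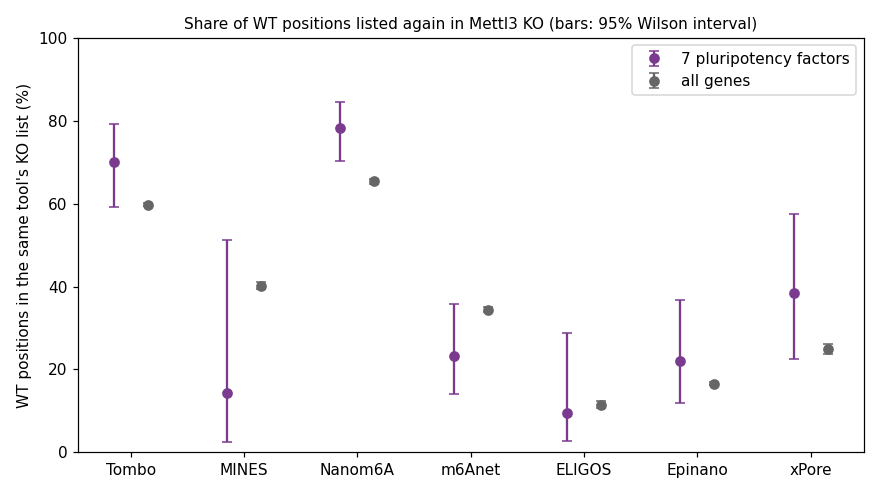
Share of each tool's WT positions that its own KO list held again (y axis, %) in the 7 genes and over all genes, with 95% Wilson intervals that cover counting error only. In the 7 genes Nanom6A (78.1%) and Tombo (70.1%) sit above ELIGOS (9.52%), MINES (14.3%), Epinano (22.0%) and m6Anet (23.2%). Matched to the KO list of any tool, the shares are 69.6% to 84.4%.

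The comparison lists held 14 of the 174 positions, 8.05% (4.85–13.1%), beside 1.97% of the 160384 listed positions on annotated genes. Nanocompore had 11, DiffErr 8 and DRUMMER 5. All 3 lists held 3 positions, 1.72% (0.588–4.95%), beside 0.324% over all genes. They were the GGACT at 35506327 in Pou5f1, the GGACA at 34651236 in Sox2 and the AGACT at 43296273 in Zfp42. At least 1 such position was found in 5 of the 7 genes, beside 14.5% of all genes with a listed position and 23.5% of those with at least 10 WT positions. Of the 14, 12 were also in at least 1 KO list, and the other two were the 34651236 position of Sox2 and the 122713398 position of Nanog. Across all genes, 2422 of 3166 comparison positions (76.5%) were also in a KO list.

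At least 3 of 10 tools listed 48 of the 174 positions, 27.6% (21.5–34.7%), beside 10.1% over all genes. Only 1 tool listed 72 of the 168 WT or comparison positions, 42.9% (35.6–50.4%), beside 65.3% over all genes, and that tool was Nanom6A at 44 and Tombo at 16 of the 72. In KO no position was listed by more than 4 of 7 tools. Positions with at least 3 tools and no KO listing numbered 10, 5.75% (3.15–10.3%), beside 2.66% over all genes. They were found in Sox2 (3), Nanog (2) and Esrrb (5), and in none of Pou5f1, Zfp42, Sall4 and Tfcp2l1. In Pou5f1 and Zfp42 none was possible, as every listed position of both was also in a KO list, and in Sall4 and Tfcp2l1 no position had more than 1 tool. This depended on the tools counted. Without Nanom6A the count was 7, and without Nanom6A and Tombo it was 14, with no all-gene value computed for either. The GGACT at 35506327 in Pou5f1 and the GGACT at 43295350 in Zfp42 met the rule without Nanom6A and Tombo. Of the 10, 8 were in coding sequence, 9 were in GGACT or GGACA or in GGACC or AGACT, and 5 of these in GGACT. All 10 were in the WT list of Nanom6A, 8 in that of m6Anet and 8 in that of Tombo, and 2 were in a comparison list.

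By sequence, the positions of more tools were more often in a few 5-mers. The 4 RRACH 5-mers followed here, GGACT with GGACA and GGACC with AGACT, held 162 of the 450 RRACH positions in the exons of the 7 genes, 36.0% (31.7–40.5%), and 68 of the 168 positions in WT or comparison lists, 40.5% (33.3–48.0%), beside 43.2% of 129018 such positions over all genes. Their share was 33.6% (26.3–41.7%) of the KO positions and 64.7% (47.9–78.5%) of the 34 without a KO listing. Among the positions of at least 3 tools it was 75.0% (61.2–85.1%), and 12 of the 14 comparison positions were in these 5-mers. Tools differed in this as well. The share was 73.2% (60.4–83.0%) in the WT list of m6Anet and 5 of 14 in its KO list, 76.9% (57.9–89.0%) and 6 of 12 for xPore, and 43.0% (34.7–51.6%) and 31.4% (23.3–40.8%) for Nanom6A. MINES reports only these 5-mers by design, so its listings count towards them alone. Apart from that of all WT or comparison positions, no all-gene share was computed, so these shares cannot be called particular to the 7 genes.

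Positions at most 200 nt from the stop codon's first base made up 25 of 167 WT or comparison positions, 15.0% (10.4–21.2%), and 35 of 410 RRACH positions of the main transcripts, 8.54% (6.20–11.6%). Over all genes the shares were 22.6% and 12.7%. In KO the share was 13.7% (8.93–20.4%), and its interval overlapped that of WT. It was 31.3% (19.9–45.3%) among positions of at least 3 tools, with 5 of 11 in Sox2, 4 of 10 in Nanog, 4 of 17 in Esrrb, 1 of 4 in Pou5f1 and 1 of 6 in Zfp42. Within single genes the WT share and the RRACH share were closer to each other than over the 7 together, where Tfcp2l1 and Sall4 hold 217 of the 410 RRACH positions and 12 of the 167 listed ones. In Pou5f1 the WT share and the RRACH share were both 16.0%, in Sox2 they were 23.1% and 21.2%, in Nanog 16.2% and 12.8%, and in Esrrb 16.0% and 13.2%. Of the 167, 6 were in a 5′ UTR, 67 in coding sequence and 94 in a 3′ UTR, and the KO lists held 6, 55 and 78. The coding share was 40.1% (33.0–47.7%) and the 3′ UTR share 56.3% (48.7–63.6%), beside 36.3% and 60.2% of the RRACH positions of these transcripts and 57.4% and 39.5% of the listed WT or comparison positions over all genes.

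A further 15 genes of the pluripotency network were counted the same way, among them the Krüppel-like factors Klf2, Klf4 and Klf5 and the repressor Tcf7l1. All 15 had a listed position, with 270 in all, 229 listed in WT or the comparison and 162 in KO. More positions were listed in WT than in KO in 11 of them and fewer in 4. Of their single-mode WT positions 50.9% were relisted, beside 55.1% over all genes, and 18 positions in 4 genes (6.67%) were in a comparison list, beside 1.97%. Klf2 had 10 of these 18 and Klf4 had 4.

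The 2 genes with the most similar pattern were found for each factor by the Euclidean distance over the 17 lists of the square root of the listed share of RRACH positions, among 9724 genes. For Pou5f1 these were Eef1g (distance 0.304) and Nme2 (0.326), for Sox2 Mrpl12 (0.362) and Trim13 (0.409), for Nanog Arf1 (0.350) and Ppp1cc (0.354), and for Esrrb Jade1 (0.233) and Ywhag (0.244). Zfp42 was nearest to Pgam1 (0.286) and Spp1 (0.358), Tfcp2l1 to Rictor (0.0392) and Trim71 (0.0586), and Sall4, with 1 listed position, to Pibf1 (0.00182) and Spen (0.00195). The median distance to all genes was 1.39 for Pou5f1, 1.57 for Sox2, 1.45 for Nanog, 1.06 for Esrrb, 1.69 for Zfp42, 0.457 for Tfcp2l1 and 0.615 for Sall4.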

How the data were processed

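Native poly(A) RNA of WT and Mettl3 KO mESCs was read by ONT DRS in 1 library each. The authors used Guppy for basecalling, aligned with Minimap2 to the GENCODE mouse transcriptome of GRCm38 and ran the tools, each with a minimum read number per site. They deposited lists of positions with strand and transcript or gene, converted to the genome of that build, and the cut-off of each list is not stated with it. A strict cut-off, or few reads, removes positions from a list, so listing is not a methylation level.

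A position was counted once per chromosome, base and strand. It was given to a member by overlap with its GENCODE M21 exons, a later release of the same build. All 778 lines at these positions name the same gene, and all 545 that give a transcript position fit within 1 nt. No position lies on a second gene of the same strand. Pou5f1 and Nanog have processed pseudogenes, and reads shared with such copies cannot be told apart here. The reference sequence was not read from these cells.

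The 7 genes, the network genes, the markers and the rules were chosen with earlier results of these data known. The sites named are, per gene, those in a comparison list (at most 6), the position with the most WT or comparison tools and that with the most KO tools (at most 2 of each, from the 5′ end). The other positions named were chosen after their values were seen. Alternatives were naming by the list's own gene column, 1 position per line, lists without MINES or Tombo, RRACH only, matching within 5 bp, KO lists of any tool, windows of 100 and 400 nt, the longest transcript, support of 2 and 4 tools, and leaving out Esrrb. Leaving out Nanom6A, alone or with Tombo, was added after seeing the data. Functions were tested on simulated data. Python 3.11.15, numpy 2.4.6, pandas 2.3.3, scipy 1.17.1, pysam 0.24.0 and matplotlib 3.10.9 were used.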

Additional observations from a re-analysis of the deposited data

How the results depend on the processing

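With 1 library per condition there was no replicate to leave out, and the intervals cover counting error only. No paired test of samples was possible because each condition has a single library and the lists give no counts. Positions were paired within a tool for the relisted shares, on which no test was run. Across 58 recomputations of 7 results, 42 stayed within the interval of the value given above, or within 1.5 times it for counts. Naming genes by the list's own column, matching within 5 bp, leaving out MINES or Tombo, restriction to RRACH and the longest transcript moved none of the results they applied to.

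The remaining 16 moved. Counting 1 position per line raised the 174 positions to 778 and lowered the KO to WT ratio from 0.831 to 0.565. That way a position is counted again for each line that names it, across lists and within them. No all-gene value was computed for it. Without Nanom6A the ratio was 0.628 (0.792 over all genes) and the relisted share fell from 77.7% to 56.2%. Without Nanom6A and Tombo there were 93 positions, a ratio of 0.329 (0.530 over all genes), a relisted share of 27.1%, 21.3% of WT or comparison positions within 200 nt of the stop codon, 15.1% in a comparison list and 57.8% in the 4 5-mers. The shares near the stop codon, in a comparison list and in the 5-mers have no all-gene value for these tools. Without Esrrb the relisted share was 83.6%, and the positions with at least 3 tools and no KO listing fell from 10 to 5. That count was 18 with support of 2 tools and 5 with support of 4. The share near the stop codon was 7.78% within 100 nt and 34.1% within 400 nt. For single tools, 14 of 21 recomputed relisted shares stayed within their interval. The 7 that moved were those of Tombo, MINES, m6Anet, ELIGOS, Epinano and xPore matched to the KO list of any tool (69.6% to 80.8%) and that of Nanom6A without Esrrb (90.5%).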
